A study of Mus musculus with 11 samples.

Results

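The Cd300 genes encode CD300 (CMRF35-like) receptors, a family of single immunoglobulin-domain membrane proteins found mainly on myeloid cells. All 7 genes named Cd300a, Cd300c, Cd300e, Cd300lb, Cd300ld, Cd300lf and Cd300lg were described, with every probe set that the platform annotation assigns to one of these symbols. Each was measured by 1 probe set that names no other gene, so 7 of the 19938 genes tested in the series are members. They were chosen by their log2 group differences on these same arrays, so their levels and calls in all 3 comparisons are descriptions and carry no test of the family.

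Some CD300 proteins carry tyrosine motifs (ITIMs) in their own tail and recruit phosphatases that restrain signalling, whereas others have a short tail and signal through partner proteins with activating motifs (ITAMs), chiefly DAP12, encoded by Tyrobp, and the Fc receptor gamma chain, encoded by Fcer1g. Several bind lipids exposed on dying cells, such as phosphatidylserine and ceramide. In dendritic cells and other phagocytes the family is known for setting how readily lipid or microbial ligands lead to activation.

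The series holds 11 whole-transcript expression arrays of splenic classical dendritic cells (cDCs) from C57BL/6 mice. The groups were CD172a+ cDCs of Zeb2(fl/fl);CD11c-Cre(tg) mice, labelled Zeb2-deficient (4 arrays), CD24+ cDCs of Zeb2(fl/fl) control mice (3 arrays) and CD172a+ cDCs of Zeb2(fl/fl) control mice (4 arrays). All mice thus carried floxed Zeb2, a transcriptional repressor gene. The Cre transgene, driven by the CD11c promoter that is active in cDCs and in other CD11c-expressing cells, was present only in the labelled Zeb2-deficient group, so transgene and Zeb2 deletion cannot be told apart. The labels give no ages and do not say that arrays came from separate animals, so every p-value reflects the spread among these arrays alone, and that spread may be technical.

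Values are log2 expression values made with RMA, which subtracts background, equalises the distribution of values across arrays and combines the probes of a probe set. It compresses differences near background. Zeb2 averaged 8.79 ± 0.44 in labelled Zeb2-deficient CD172a+ cDCs, 5.26 ± 0.23 in control CD24+ cDCs and 8.33 ± 0.19 in control CD172a+ cDCs (SD, n = 4, 3 and 4), so the label is not borne out by a lower signal. Whether its probes fall inside the floxed segment is not given, and directions for this group rest on its label. Of 10 cDC1 markers, 10 had a higher mean in CD24+ than in control CD172a+ cDCs. Of these, 9 passed limma's adjusted p of 0.05, where 3.25% of all genes passed as higher. Of 10 cDC2 markers, 0 had a higher mean in CD24+ cDCs, and 8 passed as lower, where 3.16% of all genes did. The arrays also fell into 2 array sets that cross the groups, found from the values because the labels name no batch. The first set held 2, 1 and 2 arrays of these groups and the second set held 2, 2 and 2. This split was the first component of the deviations from the group means, with 62.1% of their variance, and results are given over all arrays and within each set. A model with array set as a blocking term removes the same spread that defined the sets, so calls gained with it are descriptions.

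Of the members, 6 lie in 1 run of 11 Cd300 genes on mouse chromosome 11 in the RefSeq annotation of GRCm38.p6, in the order Cd300a, Cd300lb, Cd300c, Cd300ld, Cd300c2, Cd300ld4, Cd300ld2, Cd300ld5, Cd300ld3, Cd300e and Cd300lf. Cd300lf lies inside the annotated span of Rab37, and Cd300lg lies apart, with 146 protein-coding genes between it and Cd300a. The 250 bases before the annotated start of 4 members are shown, namely the 3 with the largest differences between cDC subsets and Cd300c, whose difference ran the other way. They were taken from RefSeq in build GRCm38.p6, at chr11:114989887-114990136 (- strand), chr11:115133993-115134242 (- strand), chr11:114889791-114890040 (+ strand) and chr11:114960508-114960757 (- strand), and read 5′ to 3′ along the gene. Capitals mark the 7-base ETS core AGGAAGT, a form of the sequence bound by myeloid ETS factors such as PU.1.
Cd300ld: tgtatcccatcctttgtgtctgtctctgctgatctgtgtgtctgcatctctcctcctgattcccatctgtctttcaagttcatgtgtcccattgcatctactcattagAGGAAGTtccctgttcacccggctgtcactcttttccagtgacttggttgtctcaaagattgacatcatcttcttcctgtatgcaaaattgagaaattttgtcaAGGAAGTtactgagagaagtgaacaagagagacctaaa
Cd300lf: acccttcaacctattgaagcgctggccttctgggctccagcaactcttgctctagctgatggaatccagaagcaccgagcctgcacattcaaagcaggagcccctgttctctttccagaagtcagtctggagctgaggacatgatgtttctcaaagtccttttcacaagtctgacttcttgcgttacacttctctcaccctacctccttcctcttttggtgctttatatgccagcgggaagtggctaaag
Cd300a: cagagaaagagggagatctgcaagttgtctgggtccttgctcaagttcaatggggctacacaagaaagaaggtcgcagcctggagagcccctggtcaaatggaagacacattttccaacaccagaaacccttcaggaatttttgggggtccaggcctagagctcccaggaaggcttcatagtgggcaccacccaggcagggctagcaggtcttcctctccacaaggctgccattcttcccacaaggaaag
Cd300c: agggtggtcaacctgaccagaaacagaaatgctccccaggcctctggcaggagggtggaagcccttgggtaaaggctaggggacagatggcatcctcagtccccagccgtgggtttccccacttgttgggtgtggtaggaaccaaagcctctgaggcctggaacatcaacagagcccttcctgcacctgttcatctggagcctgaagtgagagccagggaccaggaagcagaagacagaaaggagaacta
The RefSeq promoter table held 6 of the 7 members, all but Cd300lg. Searched on both strands, AGGAAGT occurred in 2 of these 6 windows, in Cd300ld at 142 to 136 and 38 to 32 bases before the start and in Cd300e at 137 to 131, and in 7.69% of all 32851 windows of 250 bases in the table. The E-box CACCTG, a form bound by Zeb factors, occurred in 1 of 6, Cd300c at 67 to 62 bases before the start, and in 17.2% of all windows. The interferon-response form, GAAA repeated after 2 bases of any kind, was found in Cd300c only among the 6 (2.98% of all windows), the AP-1 form TGANTCA in 0 of 6 (6.75%), and TATAAA in Cd300lb and Cd300lf (12.4%). These motifs did not overlap one another in the windows shown. The windows of Cd300ld3, Cd300ld4 and Cd300ld5 matched that of Cd300ld at 185, 180 and 180 of 250 bases in a global alignment, and those of Cd300ld4 and Cd300ld5 were identical.

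Control CD24+ cDCs were first set against control CD172a+ cDCs, to ask how the subsets differ. There Cd300ld and Cd300lf were several-fold lower in CD24+ cDCs, Cd300a and Cd300lb were lower by less, and Cd300c was slightly higher. Bulk values cannot tell fewer expressing cells from less RNA per cell. The count of members past limma's adjusted p of 0.05 was 3 of 7, all lower (Cd300ld, Cd300lf and Cd300lb), where 6.41% of all genes passed in either direction, 3.25% higher and 3.16% lower. With array set as a blocking term 5 of 7 passed, Cd300c higher and Cd300a, Cd300lb, Cd300ld and Cd300lf lower, where 15.4% of all genes passed, 8.55% higher and 6.9% lower. Groups did not overlap for 4 of 7 members, against 14.6% of all genes. The median difference was -0.49 over the members and -0.02 over all genes.

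Cd300ld encodes a receptor that couples to the Fc receptor gamma chain in mouse cells. It read 6.91, 6.73, 7.96 and 7.90 in labelled Zeb2-deficient CD172a+ cDCs, 4.48, 5.52 and 5.89 in control CD24+ cDCs, and 7.70, 7.84, 8.79 and 8.71 in control CD172a+ cDCs, in the order of the replicate numbers. Every CD24+ array lay below every array of both CD172a+ groups. The difference of CD24+ from control CD172a+ cDCs was -2.96 (SE 0.43), a 7.79-fold lower value, and it was -3.29 within the first array set, which holds 1 CD24+ array, and -3.04 within the second. The CD24+ mean of 5.30 lay under the median of all gene means in that group (5.49), so this fold is not an exact ratio.

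Cd300lf encodes an inhibitory receptor with ITIMs that binds ceramide, couples to the IL-4 receptor and serves in mice as an entry receptor for murine norovirus. It read 8.54, 8.38, 7.05 and 7.23 in labelled Zeb2-deficient CD172a+ cDCs, 5.28, 5.13 and 4.72 in control CD24+ cDCs, and 8.20, 8.35, 7.15 and 6.89 in control CD172a+ cDCs. The CD24+ arrays were again the 3 lowest, while the CD172a+ groups overlapped throughout. The difference of CD24+ from control CD172a+ cDCs was -2.61 (SE 0.44), or 6.09-fold lower, with -2.99 and -2.10 within the first and second sets. Its CD24+ mean of 5.04 also lay under the median of all genes.

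Cd300a encodes the other ITIM-bearing inhibitory member, which binds phosphatidylserine and phosphatidylethanolamine. It read 9.29, 9.19, 7.89 and 7.83 in labelled Zeb2-deficient CD172a+ cDCs, 7.53, 7.09 and 7.03 in control CD24+ cDCs, and 9.17, 9.15, 8.24 and 7.68 in control CD172a+ cDCs. The CD24+ arrays lay below all others, the nearest CD172a+ value being 7.68. The difference of CD24+ from control CD172a+ cDCs was -1.34 (SE 0.45) and was not among the calls over all arrays, although it was with the array set as a block (-1.16, SE 0.18). Within the first and second sets it was -1.63 and -0.90.

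**Figure D1:**
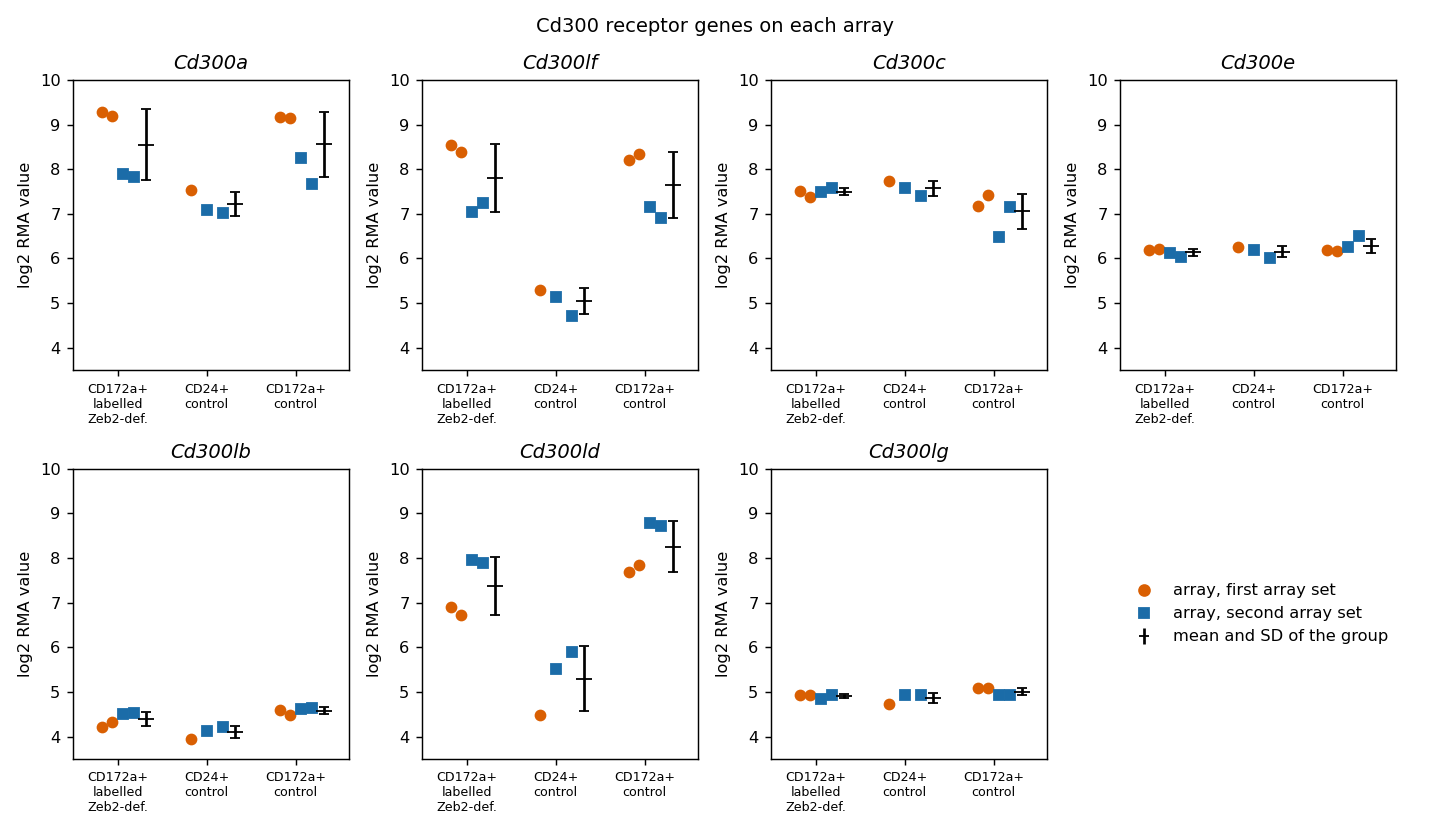
Log2 RMA values of the 7 Cd300 receptor genes on each of 11 arrays (y axis) by group (x axis), with circles for the first and squares for the second array set and bars for the group mean and SD. Cd300ld, Cd300lf and Cd300a were lowest in CD24+ cDCs, and inside each group Cd300ld was higher and Cd300a and Cd300lf were lower in the second array set.

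Cd300c, whose human counterpart is an activating receptor, read 7.52, 7.38, 7.49 and 7.57 in labelled Zeb2-deficient CD172a+ cDCs, 7.74, 7.58 and 7.41 in control CD24+ cDCs, and 7.17, 7.42, 6.48 and 7.14 in control CD172a+ cDCs. Its lowest value was that of control CD172a+ replicate 3, and the groups overlapped in each comparison. The difference of CD24+ from control CD172a+ cDCs was 0.52 (SE 0.19), with 0.45 and 0.68 within the sets, and it was among the calls only with the array set as a block. It was 0.33 without control CD172a+ replicate 3.

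Cd300lb, a receptor that signals through DAP12 and binds phosphatidylserine, averaged 4.39 ± 0.15 in labelled Zeb2-deficient CD172a+ cDCs, 4.09 ± 0.13 in control CD24+ cDCs and 4.58 ± 0.08 in control CD172a+ cDCs (SD, n = 4, 3 and 4). It was 0.49 lower in CD24+ than in control CD172a+ cDCs on the log2 scale (difference -0.49, SE 0.11), and its call was lost without CD24+ replicate 1 (difference -0.41) or CD24+ replicate 2 (-0.50). All 3 means lay under the median of all genes. Cd300e, whose human counterpart is a DAP12-coupled receptor of monocytes, averaged 6.13 ± 0.08, 6.15 ± 0.13 and 6.28 ± 0.16 in the same order of groups, and its largest difference in the 3 comparisons was -0.14. Cd300lg, an adhesion receptor of vascular endothelium also called nepmucin, averaged 4.91 ± 0.05, 4.87 ± 0.11 and 5.01 ± 0.08, under the median of all genes in each group, and gave the same value to 4 decimals on 5 arrays. The groups thus overlapped for Cd300c, Cd300e and Cd300lg in all 3 comparisons.

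Labelled Zeb2-deficient CD172a+ cDCs were next set against control CD172a+ cDCs. Their Zeb2 signal was not lower and only they carried the Cre transgene, so a difference here cannot be assigned to Zeb2. Cd300ld had the largest difference among the members, with a mean of 7.37 ± 0.64 in labelled Zeb2-deficient and 8.26 ± 0.57 in control CD172a+ cDCs (SD, n = 4 each), a log2 difference of -0.88 (SE 0.39) or 1.84-fold. Cd300c had a mean of 7.49 ± 0.08 against 7.05 ± 0.40, a difference of 0.43 (SE 0.17). Cd300a (-0.007) and Cd300lf (0.15), the ITIM-bearing members, had differences well below their SDs of 0.73 to 0.80.

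Over all arrays 0 of 7 members passed limma's adjusted p of 0.05, where 10 genes or 0.0502% of all genes passed, 0.0401% higher and 0.01% lower, and 2 of 7 had an unadjusted p below 0.05, against 3.88% of all genes. With the array set as a block 1 of 7 passed, Cd300ld (lower), where 0.145% of all genes passed, 0.0903% higher and 0.0552% lower. Groups did not overlap for 0 of 7 members, against 2.1% of all genes. For Cd300ld the groups overlapped over all arrays. Each array set holds only 2 arrays of each of these groups, and the share of all genes that separate within both sets was not counted. In the first set Cd300ld read 6.91 and 6.73 in labelled Zeb2-deficient against 7.70 and 7.84 in control arrays, a difference of -0.94. In the second set it read 7.96 and 7.90 against 8.79 and 8.71, a difference of -0.82. The SE was 0.39 over all arrays and 0.10 with the block. The residual SD of Cd300ld was 0.64 with group alone and 0.13 with group and array set in the model. The sets were found from these same deviations, and Cd300ld was among the genes that differed most between them (percentile 97.9 by size). The fall in its SE and SD was thus built in, and its call with the block is a description only. With the replicate number as a block, Cd300ld was not among the calls, with the same difference of -0.88 (SE 0.17, limma adjusted p = 0.246).

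Some markers of other cell types differed in this comparison. Of 11 monocyte markers measured, 1 passed limma's adjusted p of 0.05 as lower and 0 as higher. Of all genes 0.01% passed as lower and 0.0401% as higher. The median difference of the monocyte markers was -0.45. Their mean level lay between 6.67 and 7.15 in labelled Zeb2-deficient CD172a+ cDCs and between 7.36 and 7.74 in control CD172a+ cDCs. Lyz2 averaged 9.17 in labelled Zeb2-deficient and 10.82 in control CD172a+ cDCs, Csf1r 7.47 and 8.42, Adgre4 6.30 and 7.49, Cx3cr1 6.38 and 7.17, and Ccr2 5.14 and 6.36. Differences were smaller for Nr4a1 (11.41 and 11.46), Ace (6.33 and 6.47) and Cd14 (7.34 and 7.54). Of the 11, 3 had a higher mean in control CD24+ than in control CD172a+ cDCs, among them Ccr2 and Lyz2 (10.96 in CD24+). How many monocytes were among the sorted cells was not tested. In labelled Zeb2-deficient against control CD172a+ cDCs, Fcgr1 (4.85 and 4.78) and F13a1 (4.35 and 4.31) were the 2 of 11 with a positive difference. Both lay under the median of all genes in both groups. Of 9 B cell markers, 1 passed the same threshold as higher and 0 as lower, with a median difference of 0.07. Their mean level lay between 5.53 and 5.83 in labelled Zeb2-deficient and between 5.02 and 5.33 in control CD172a+ cDCs. Ms4a1 averaged 8.22 and 6.20 and Fcer2a 6.48 and 4.43 in these groups, while Cd79a (3.38 and 3.31) lay under the median of all genes in both. The difference was positive for only 5 of the 9, and Cd79b (7.10 and 7.23) and Cr2 (4.76 and 4.93) were among those with a lower mean. Of 10 plasmacytoid DC markers, 1 passed it as higher and 0 as lower, with a median difference of 0.13. Their mean level overlapped (6.41 to 6.76 and 6.17 to 6.49), with Cox6a2 at 8.88 and 6.79. The difference was positive for 6 of the 10, and Tcf4 (7.48 and 7.74) and Cd209d (4.66 and 5.27) were among those with a lower mean. The part of these cells in the Cd300ld difference was not tested.

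**Figure D2:**
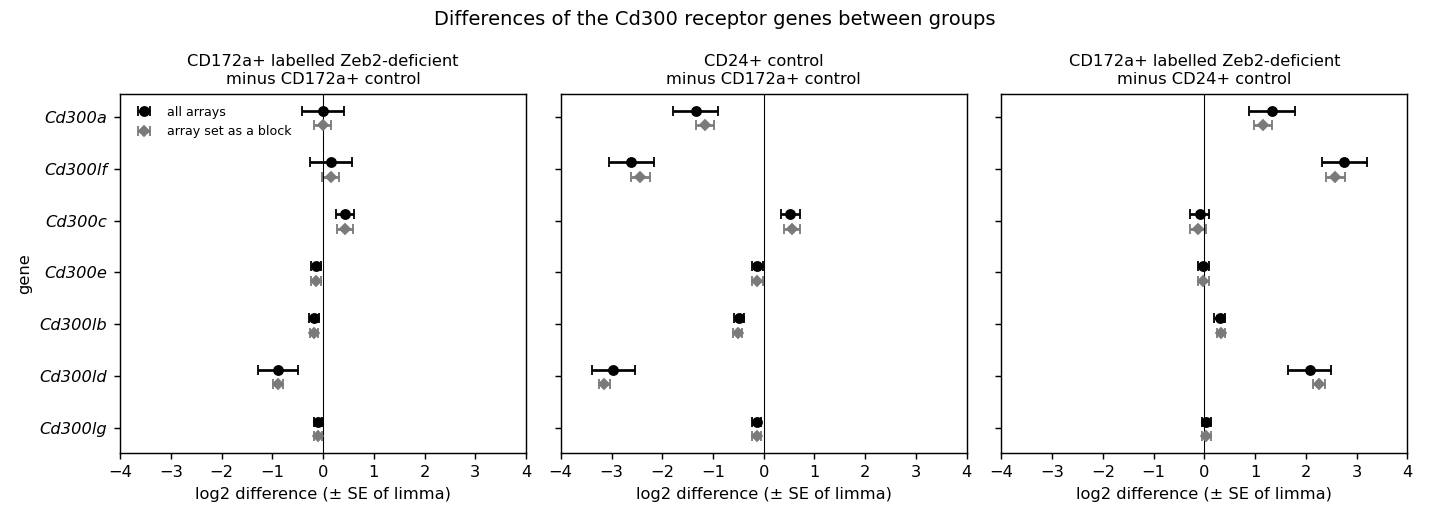
Log2 differences of the 7 genes (x axis, ± SE of limma) in the 3 comparisons, over all arrays (circles) and with array set as a blocking term (diamonds). In CD24+ against CD172a+ control cDCs Cd300ld (-2.96) and Cd300lf (-2.61) lay farthest from 0, and in labelled Zeb2-deficient against control CD172a+ cDCs Cd300ld (-0.88) did.

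Labelled Zeb2-deficient CD172a+ cDCs were also set against control CD24+ cDCs. This comparison shares its arrays with the others. Cd300lf was 2.76 higher on the log2 scale in labelled Zeb2-deficient CD172a+ cDCs (SE 0.44, 6.76-fold), Cd300ld 2.08 higher (SE 0.43, 4.23-fold), Cd300a 1.33 higher (SE 0.45) and Cd300lb 0.30 higher (SE 0.11). Cd300c (-0.09), Cd300e (-0.02) and Cd300lg (0.04) differed by less than their SEs. Over all arrays 2 of 7 members passed, Cd300lf and Cd300ld, both higher, where 7.17% of all genes passed, 3.25% higher and 3.92% lower, and 4 of 7 did not overlap, against 17.9% of all genes. With the array set as a block Cd300a and Cd300lb passed too, giving 4 of 7, all higher, where 18.3% of all genes passed, 7.52% higher and 10.7% lower. In the order of their group means, Cd300lf and Cd300a were lowest in CD24+ cDCs, with CD172a+ groups that did not differ beyond their spread. Cd300ld was lowest in CD24+ cDCs, intermediate in labelled Zeb2-deficient CD172a+ and highest in control CD172a+ cDCs, although the CD172a+ groups overlapped over all arrays.

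The array sets separated the members further. Between the second and the first set, inside each group, Cd300ld differed by 1.10 in labelled Zeb2-deficient CD172a+, 1.23 in control CD24+ and 0.98 in control CD172a+ cDCs. Cd300a differed by -1.38, -0.47 and -1.20, and Cd300lf by -1.32, -0.36 and -1.25, in the same order of groups. The direction was therefore opposite for Cd300ld and for the ITIM-bearing pair in every group. Averaged over the deviations from the group means, these differences were 1.06, -1.06 and -1.03, where 2.65% of all genes exceeded 1 in size and the median size was 0.17. The other 4 members differed by -0.48 to 0.24.

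Red pulp macrophage and cDC2 markers moved with the array sets. Of 12 macrophage markers measured, 11 were higher in the second set, with a median of 0.84. Their mean level was 6.71 and 5.53 in the second and first sets of labelled Zeb2-deficient CD172a+ cDCs. It was 5.58 and 5.05 in CD24+ cDCs and 6.85 and 5.57 in control CD172a+ cDCs. Over the arrays of these groups the mean level ranged from 5.504 to 6.87, 5.05 to 5.59 and 5.48 to 6.88. Among defining genes, Cd163 and Cd5l had means under the median of all genes in every group, whereas Vcam1 and Spic were above it. Of 12 neutrophil markers, 1, 0 and 1 had a mean above the median of all genes in these groups. Of 10 cDC2 markers, 2 were higher in the second set, with a median of -0.41. Their mean level was 7.11 and 7.68 in the second and first sets of labelled Zeb2-deficient CD172a+ cDCs. It was 4.90 and 4.59 in CD24+ cDCs and 7.15 and 7.68 in control CD172a+ cDCs. Markers of other cell types differed between the sets too. Higher in the second set were 6 of 6 T cell, 5 of 5 erythroid and platelet and 7 of 8 NK cell markers (medians 0.15, 0.21 and 0.16). Only 4 of 9 B cell and 2 of 10 plasmacytoid DC markers were (medians -0.02 and -0.08). The share of all genes higher in the second set was not counted. The part of any of these cell types in the array-set differences was not tested.

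**Figure D3:**
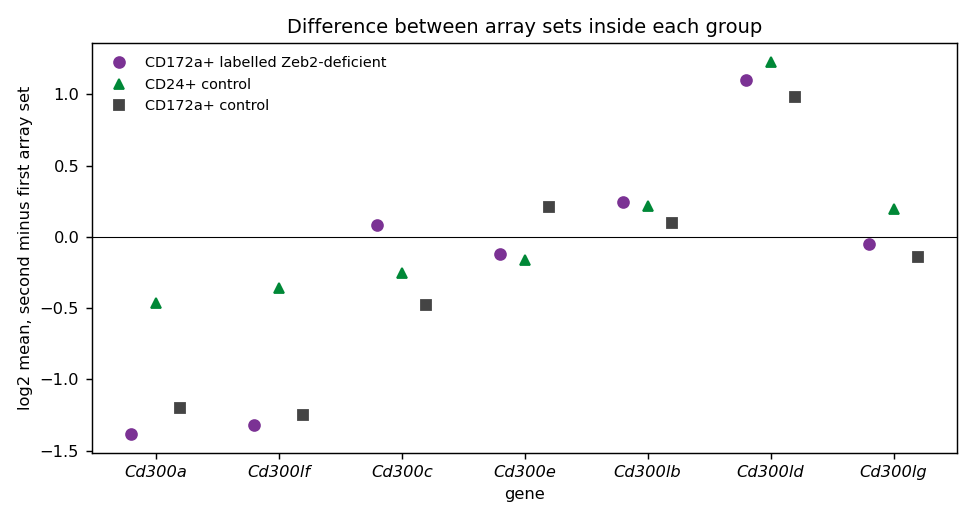
Difference in mean log2 value between the second and the first array set (y axis) for each gene (x axis) inside each group. Cd300ld was 0.98 to 1.23 higher in the second set, and Cd300a and Cd300lf were 0.36 to 1.38 lower.

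The genes whose profiles over the 11 arrays were most like a member were taken by the smallest root mean square difference between profiles centred on each gene's own mean. The measure is a description over arrays that share groups and array sets. It was applied to the 3 members whose group means spanned more than 1 log2 unit. Cd300lf was closest to Ddx60 (0.23 log2 units), an interferon-inducible helicase gene, then Cd209a (0.24), a lectin marker of cDC2, Ripor2 (0.27), Fgr (0.28), a Src-family kinase gene of myeloid cells, and Ms4a6b (0.31). Cd300ld was closest to Clec4n (0.31), which encodes the Fc receptor gamma chain-coupled lectin dectin-2, then Rasgrp1 (0.35), Myo1e (0.37), Pla2g7 (0.38) and Slc7a11 (0.40). Cd300a was closest to Ccnd1 (0.15), which encodes cyclin D, Arhgap9 (0.16), Slc44a2 (0.18), Spns3 (0.19) and Ddr1 (0.21). Between members, Cd300a and Cd300lf were 0.61 apart, and Cd300ld was 1.27 from Cd300a and 1.17 from Cd300lf.

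Signalling partners of the family were taken next. Of 24 measured adaptors, kinases and phosphatases of ITAM and ITIM signalling, 5 were lower and 0 higher in control CD24+ than in control CD172a+ cDCs, where 6.41% of all genes passed, and the list's median was -0.20 against -0.02 over all genes. Fcer1g averaged 9.10 ± 0.46 in CD24+ and 11.74 ± 0.31 in control CD172a+ cDCs (SD, n = 3 and 4), a 6.24-fold lower value (limma adjusted p = 2.08e-05). Tyrobp averaged 11.47 ± 0.12 in CD24+ and 11.97 ± 0.18 in control CD172a+ cDCs, 1.41-fold lower (adjusted p = 0.0447 in limma). Syk, the kinase that binds phosphorylated ITAMs, was 3.19-fold lower (limma adjusted p = 1.27e-05), Fgr 6.22-fold lower (limma adjusted p = 0.0046) and Lcp2, the SLP-76 adaptor, 2.09-fold lower (limma adjusted p = 0.0369).

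The calls of Tyrobp and Lcp2 were lost without 1 array in 9 and 8 of 11 cases, with limma adjusted p up to 0.165 and 0.157 and with differences of -0.56 to -0.44 and -1.06 to -0.89. The phosphatase genes recruited by ITIMs did not pass over all arrays, with differences of -0.78 for Ptpn6, 0.42 for Ptpn11 and 0.44 for Inpp5d. With the array set as a block 11 of 24 passed, 3 higher and 8 lower, where 15.4% of all genes passed, and Ptpn6 was then lower (-0.57, limma adjusted p = 0.0248) and Ptpn11 (0.40, limma adjusted p = 0.0354) and Inpp5d (0.48, limma adjusted p = 0.0157) higher in CD24+ cDCs.

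In labelled Zeb2-deficient against control CD172a+ cDCs, 0 of these 24 passed limma over all arrays, where 0.0502% of all genes did, and 1 had an unadjusted p below 0.05, against 3.88% of all genes. Tyrobp (-0.01), Fcer1g (-0.05), Ptpn6 (-0.05), Inpp5d (0.05) and Ptpn11 (-0.24) were among those that did not pass. In labelled Zeb2-deficient CD172a+ against control CD24+ cDCs 4 were higher and 2 lower, where 7.17% of all genes passed. Fcer1g was higher (2.59, limma adjusted p = 2.58e-05), as were Syk (1.44, limma adjusted p = 4.2e-05), Fgr (2.47, limma adjusted p = 0.00661) and Tyrobp (0.48, limma adjusted p = 0.0462, a call lost without 1 array in 9 of 11 cases). Fyn, a Src-family kinase gene (-0.86, limma adjusted p = 0.00274), and Ptpn11 (-0.66, limma adjusted p = 0.00962) were lower. The Ptpn11 call was lost without CD24+ replicate 2 (-0.57, limma adjusted p = 0.0529).

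**Figure D4:**
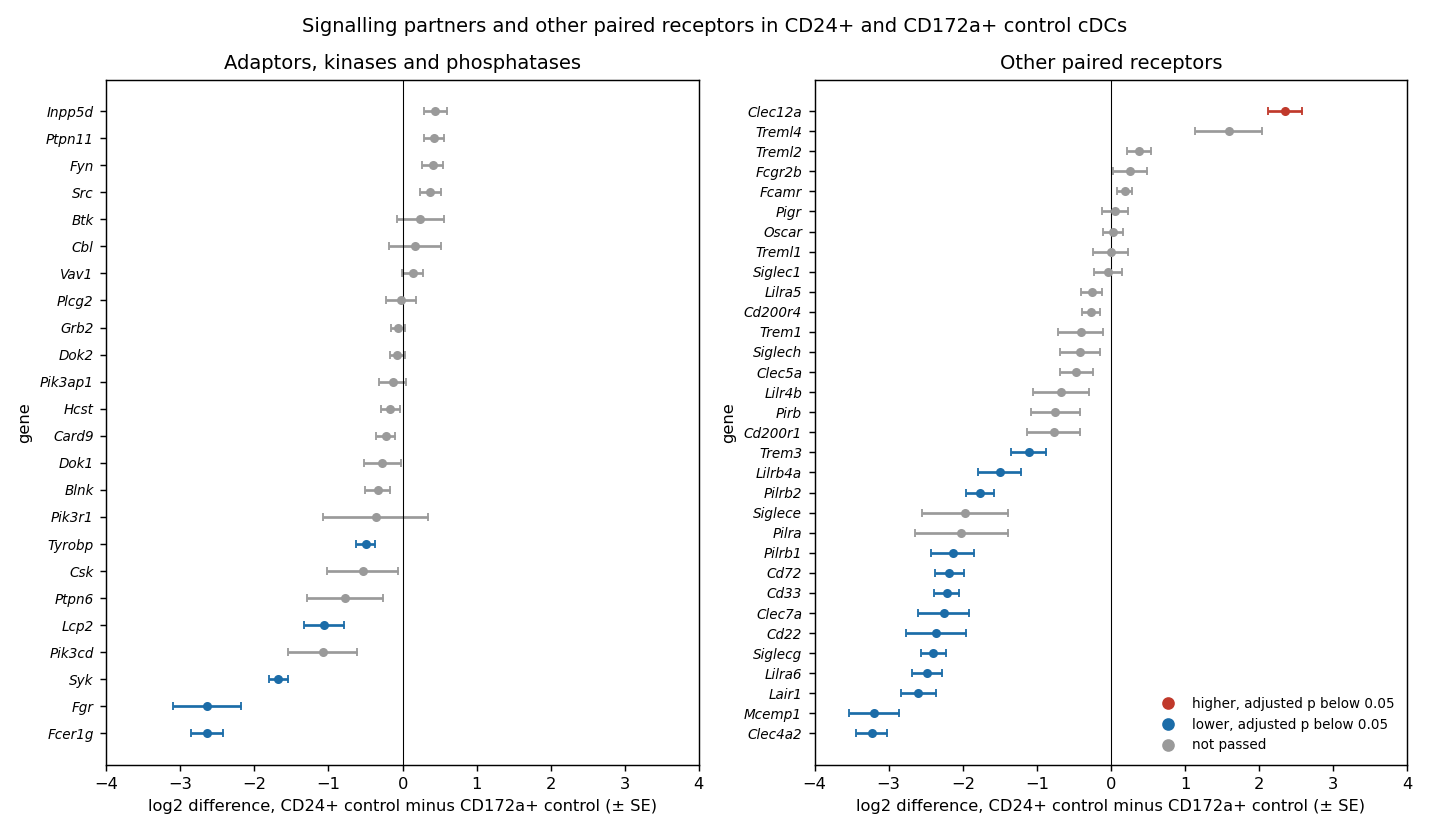
Log2 differences (x axis, ± SE) between CD24+ and CD172a+ control cDCs for 24 signalling genes and 32 other receptor genes (y axes). Colours show whether they passed limma's adjusted p of 0.05. Fcer1g and Fgr lay lowest among the signalling genes, and 13 of the 32 receptor genes were lower and 1 was higher.

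A further list held other receptor genes, most of them inhibitory or activating, together with Mcemp1, Pigr and Fcamr, which are not paired receptors. Of 32 measured, 13 were lower, Mcemp1 among them (-3.20), and 1 was higher in control CD24+ than in control CD172a+ cDCs. Of all genes 6.41% passed, and the list's median was -0.76 against -0.02 over all genes. Clec4a2, an ITIM-bearing lectin gene, was 9.38-fold lower (limma adjusted p = 3.73e-06), Siglecg 5.28-fold (limma adjusted p = 6.42e-06), Cd33 4.64-fold (limma adjusted p = 1.27e-05) and the activating Lilra6 5.57-fold lower (limma adjusted p = 2e-05). The CD24+ means of Clec4a2 (5.07) and Lilra6 (4.42) lay under the median of all genes, so these folds are not exact ratios. In labelled Zeb2-deficient against control CD172a+ cDCs 0 of 32 passed limma over all arrays, where 0.0502% of all genes did, and 3 had an unadjusted p below 0.05, against 3.88% of all genes. In labelled Zeb2-deficient CD172a+ against control CD24+ cDCs 13 were higher and 2 lower, where 7.17% of all genes passed. By p-value the first 4 were Clec4a2 (3.11), Cd33 (2.41), Siglecg (2.29) and Cd72 (2.24), with limma adjusted p of 4.81e-06 to 4.18e-05. Both of these comparisons with CD24+ cDCs share its 3 arrays.

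Of 26 genes for receptors coupled to Cd300 proteins in mouse cells and for other phosphatidylserine receptors and bridging proteins, 1 was higher and 1 lower in control CD24+ than in control CD172a+ cDCs, or 7.69% of the list, where 6.41% of all genes passed. Cd36, a scavenger receptor gene, averaged 10.19 ± 0.18 in CD24+ and 5.23 ± 0.46 in control CD172a+ cDCs (SD, n = 3 and 4; limma adjusted p = 8.24e-07), and the integrin gene Itgb3 was lower in CD24+ cDCs (-1.13, limma adjusted p = 0.000709). Il4ra, the partner of the Cd300lf protein, did not pass over all arrays (-0.72) and was lower with the array set as a block (-0.86, limma adjusted p = 0.0017). In labelled Zeb2-deficient against control CD172a+ cDCs 0 of 26 passed limma, where 0.0502% of all genes did, 1 had an unadjusted p below 0.05, against 3.88% of all genes, and Il4ra differed by 0.13. In labelled Zeb2-deficient CD172a+ against control CD24+ cDCs 3 of 26 passed, where 7.17% of all genes did. Cd36 was lower (-5.00, limma adjusted p = 8.28e-07), Itgb3 higher (0.77, limma adjusted p = 0.00939) and Il13ra1, a receptor chain for IL-4 and IL-13, higher (0.95, limma adjusted p = 0.0489), a call lost without 1 array in 9 of 11 cases with limma adjusted p of up to 0.179.

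Of the other genes in or beside the Cd300 cluster, 14 were measured. Cd300c2, whose product couples to DAP12 and the Fc receptor gamma chain in mouse cells, averaged 9.95 ± 0.30 in labelled Zeb2-deficient CD172a+ cDCs, 8.66 ± 0.32 in control CD24+ cDCs and 10.02 ± 0.36 in control CD172a+ cDCs (SD, n = 4, 3 and 4). It was lower in CD24+ than in control CD172a+ cDCs (-1.36, limma adjusted p = 0.00373), and Gprc5c, an orphan receptor gene beside Cd300a, was higher (0.81, limma adjusted p = 0.0103), making 2 of 14 where 6.41% of all genes passed. Rab37, whose span holds Cd300lf, differed by -0.90 and did not pass. In labelled Zeb2-deficient against control CD172a+ cDCs 0 of 14 passed limma, where 0.0502% of all genes did, and 1 had an unadjusted p below 0.05, against 3.88% of all genes, with Cd300c2 at -0.07. In labelled Zeb2-deficient CD172a+ against control CD24+ cDCs Cd300c2 (1.29, limma adjusted p = 0.00496) and Btbd17 (0.36, limma adjusted p = 0.0351) were higher and Gprc5c lower (-0.61, limma adjusted p = 0.0434), 3 of 14 where 7.17% of all genes passed. The calls of Btbd17 and Gprc5c were lost without 1 array in 6 and 8 of 11 cases, with limma adjusted p up to 0.132 and 0.165.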

How the data were processed

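The deposited log2 values of 30177 probe sets on 11 arrays were made with RMA by the authors, per the submitters' processing notes. The software version, build and probe filters are not given in the sources used here. Array medians lay between 5.45 and 5.52. Precision is limited by how few arrays there are (8 residual degrees of freedom).

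Of the probe sets, 21789 named 1 gene in the platform annotation, and for each of 19938 genes the probe set of highest mean was kept. Group comparisons used 1 linear model over all arrays (limma 3.58.1, run under R 4.3.3) with group as factor, two-sided, with Benjamini-Hochberg adjustment over all genes at 0.05. The fit was tested on simulated data with independent noise on each array and no array sets. That test therefore gives no error rate for these arrays. Sequences were handled with Biopython 1.88 and figures drawn with matplotlib 3.10.9.

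The members, the 4 gene lists and the array sets were chosen with earlier results of these data known. Of the lists, 24 of 26, 26 of 26, 32 of 34 and 14 of 22 genes were measured singly. From each list the text names up to 4 called genes with the smallest p per comparison, and Tyrobp, Fcer1g, Ptpn6, Ptpn11, Inpp5d and Il4ra. Rab37 and the marker genes were named beside this rule. Alternatives were array medians centred, another variance model, array weights, dim genes left out, the mean of probe sets, all probe sets, blocks by array set and replicate number, each set alone and leaving out each array.

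Same-numbered labelled Zeb2-deficient and control CD172a+ arrays deviated together (r across genes 0.44 to 0.68 in 4 pairs), but the labels state no pairing. Within an array set, pairs with different numbers reached 0.50 to 0.70, so the values show no pairing by number beyond the array set. For CD24+ replicate 2, r was -0.44 and -0.36, so its number does not pair it.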

Additional observations from a re-analysis of the deposited data

Results flagged for a closer look

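Cd300lg in labelled Zeb2-deficient CD172a+ cDCs read 4.94, 4.94, 4.84 and 4.94, and replicate 3 stood apart from the other arrays by a gap of 1 times the group's range, over Dixon's critical value for 4 samples. It was the only one of 14 groups of 4 arrays tested over the 7 genes to do so, and chance gives about 1 in 20. The other 3 arrays had the same value to 4 decimals, so the range is that of 1 array.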

How the results depend on the processing

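Under the alternatives, 425 member differences moved by less than the residual SD, 10 by more, and 0 of the called ones changed sign. With array set as a blocking term, called members were 1 (labelled Zeb2-deficient against control CD172a+ cDCs), 5 (CD24+ against control CD172a+) and 4 (labelled Zeb2-deficient CD172a+ against CD24+), in place of 0, 3 and 2. Of all genes 0.145%, 15.4% and 18.3% passed with this block, in place of 0.0502%, 6.41% and 7.17%. Signalling genes called were 11 and 11 in the comparisons with CD24+ cDCs, in place of 5 and 6, coupled receptors 6 and 6 in place of 2 and 3, and cluster genes in the last comparison 5 in place of 3. Signalling genes called in CD24+ against control CD172a+ cDCs were 3 with array medians centred (6.23% of all genes) and 8 with array weights (9.56%). They were 3 with every probe set tested (5.75%), 8 with a replicate block (9.24%), and 3 to 6 without 1 array (4.38% to 6.12%). The first array set holds 1 CD24+ array, so calls in the comparisons with CD24+ cDCs are not given for it alone. In the second set alone, coupled receptors called in CD24+ against control CD172a+ cDCs were 6. Cluster genes called in the second set alone were 1 and 1. Of all genes 8.79% passed there in CD24+ against control CD172a+ cDCs and 9.71% in labelled Zeb2-deficient CD172a+ against CD24+ cDCs. With replicate number as a block, coupled receptors called in labelled Zeb2-deficient CD172a+ against CD24+ cDCs were 5, where 10.3% of all genes passed. With this block Cd300a passed in both comparisons with CD24+ cDCs, where the replicate number does not pair every array. In labelled Zeb2-deficient against control CD172a+ cDCs it left 0 members and 0 genes of the 4 lists called, where 0.0552% of all genes passed. Cluster genes called in labelled Zeb2-deficient CD172a+ against CD24+ cDCs were 1 to 3 without 1 array, where 4.94% to 7.69% of all genes passed. The cause of these changes was not tested. Over all genes, 1278 passed in CD24+ against control CD172a+ cDCs and 3080 with array set as a blocking term. Values near background are compressed by RMA, which may hold for Cd300lb and Cd300lg, whose means lay under the median of all genes. That median is not a measured background level. The number of arrays limits all calls.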

Other observations

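The neighbours Cd300ld3, Cd300ld4 and Cd300ld5 shared 2 probe sets that name all of them, so no value can be given to any 1 of these genes. One probe set averaged 6.96 ± 0.15 in labelled Zeb2-deficient CD172a+ cDCs, 6.48 ± 0.14 in control CD24+ cDCs and 7.01 ± 0.20 in control CD172a+ cDCs (SD, n = 4, 3 and 4). The other averaged 7.05 ± 0.13, 6.52 ± 0.20 and 7.07 ± 0.20 in the same order of groups. Cross-hybridisation of these genes with the Cd300ld probe set was not tested.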
